A study of Mus musculus with 2 samples.

Results

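The islet macrophages were 78 barcodes of dispersed pancreatic islet cells, 46 in the WT library and 32 in the Npc1-/- library, among 8897 barcodes that passed the filters and 16215 in all. A barcode was taken as a macrophage when at least 4 of the 7 transcripts C1qa, C1qb, C1qc, Csf1r, Lyz2, Adgre1 and Cd68 had a unique molecular identifier (UMI, a count of 1 captured molecule), when the C1q transcripts together had at least 5 UMIs, and when insulin, glucagon, somatostatin and the PP-family hormones each took under 10% of its UMIs. Before that, barcodes were dropped that had 1000 genes or fewer, 50000 UMIs or more, a mitochondrial share of at least 10% or a haemoglobin share above 0.1%. The members were thus chosen by the measured levels of these 7 genes and of the hormones, which are given as a description.

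Islets of mice aged 2 weeks were dispersed and sequenced as single cells in droplets (10x Genomics), with 1 library of WT and 1 library of Npc1-/- islets, each pooled from 3 female mice. The Npc1-/- mice lacked Npc1 in every tissue, came from matings of Npc1+/- parents on the C57BL/6J background, and were compared with WT littermates. A change inside the macrophages therefore cannot be told apart from a change around them. The WT library held 8569 barcodes and 114324626 UMIs and the Npc1-/- library 7646 barcodes and 127122035 UMIs. Because each genotype has 1 library, differences could not be checked between replicates and are given without p-values, and the 95% intervals (Clopper-Pearson for shares, Poisson for sums, conditional binomial for ratios) cover counting error only.

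Macrophages are the main resident immune cells of the islet. They take up dying cells and lipoproteins and break them down in the lysosome, where NPC2 and NPC1 pass free cholesterol on to the rest of the cell. Without NPC1, cholesterol stays in the lysosome, and TREM2, APOE and lysosomal proteases are known to be raised in macrophages that handle an excess of lipid. Islet macrophages also present peptides of β cell granules on MHC class II molecules.

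Macrophages made up 0.994% of the kept barcodes in WT (46 of 4628, 0.729 to 1.32) and 0.75% in Npc1-/- (32 of 4269, 0.513 to 1.06). The ratio of the shares was 0.754 with an interval of 0.465 to 1.21, so that a difference in their frequency was not detectable at this number of cells. The Npc1-/- macrophages were deeper, with a median of 17060.5 UMIs and 3697.5 genes against 11544.5 UMIs and 2848 genes in WT. In sum, 573336 UMIs were counted in WT macrophages and 555472 in Npc1-/- macrophages. The libraries shared 12 of their cell barcodes, and none of the 78 macrophage barcodes was found in both.

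The label was checked against myeloid genes that the rule did not use. All 25 genes of a myeloid identity list were counted, and together they reached 20812 CPM (counts per 1e6 UMIs of the summed macrophages) in WT and 29606 CPM in Npc1-/-, against 393 and 303 CPM in all other kept barcodes. Beside C1qb, C1qc and Csf1r, the genes that led the macrophages over the other barcodes were Ms4a7, Aif1, Cx3cr1, Ctss, Tyrobp, Fcgr3, Fcrls, Cd300c2 and Trem2. Cx3cr1, the fractalkine receptor of tissue macrophages, had 680.2 CPM in the WT and 891 CPM in the Npc1-/- cells, against 0.203 and 0.288 CPM elsewhere. Several defining genes of other immune lineages were at 0. The monocyte genes Ly6c2 and Chil3, the dendritic cell genes Flt3 and Clec9a, the neutrophil genes S100a8, S100a9 and Ly6g, the B cell genes Cd79a and Ms4a1 and the T cell genes Cd3d, Cd3e and Trac had 0 UMIs in all macrophages, and a count of 0 leaves room for 3 counts per gene and library. Other members of these lists were counted. The immunoglobulin gene Ighm had 147 UMIs in 38 WT cells and 154 UMIs in 31 Npc1-/- cells, Cd79b had 29 and 26 UMIs, Siglech 38 and 26, Cd4 17 and 39, Fn1 30 and 1, and Ccr2 12 and 4. The B cell list as a whole took 370 CPM in WT and 333 CPM in Npc1-/- macrophages, against 361 and 85 CPM in the other barcodes, and its part in the results was not tested. Myeloid genes outside the rule thus went with the label, while a few barcodes carried a second identity.

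All 32 Npc1-/- macrophages had a UMI of each of the 7 rule genes, and their C1q transcripts numbered 132 to 647 per cell. In WT, 31 cells had 7 of these genes, 13 had 6 and 2 had 4, and the C1q sum ran from 9 to 468. Just outside the limits lay 4 WT and 1 Npc1-/- barcodes with at least 4 of the genes but under 5 C1q UMIs, and 1 WT and 2 Npc1-/- barcodes with a hormone at 10% or more. Endothelial transcripts took 9 CPM of the WT and 194 CPM of the Npc1-/- macrophages, and mesenchymal transcripts 537 and 169 CPM, with Plvap and Col3a1 the most abundant. Insulin transcripts, which are known to leak into the droplets of other cells, took a median of 1.66% of the UMIs in WT and 0.692% in Npc1-/- macrophages. Of the WT cells, 1 carried 8 mesenchymal markers with 9 C1q UMIs, 1 carried 6 T cell markers and 1 had 9.83% somatostatin, and of the Npc1-/- cells 1 carried 7 endothelial and 1 carried 5 mesenchymal markers. Leaving out these 3 WT and 2 Npc1-/- cells turned the direction of Soat1 (-0.24) and of the medians of the interferon list (-0.20) and the cell cycle list (-0.24), all of which lay near 0 with them, and brought the median of the complement and phagocytosis list from 0.13 to 0. No other gene among the 75 examined and no other list changed side.

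Over the 5190 genes with a mean of at least 20 CPM in the macrophages, the Npc1-/- to WT ratio had a median of 0.01 on the log2 scale after adding 0.5 counts to each sum, and every log2 ratio below is given relative to that median gene. A gene is called higher or lower past 2-fold when this relative log2 ratio is at least 1 or at most -1. By that rule 161 genes (3.1%) were higher and 226 (4.35%) lower in Npc1-/- macrophages, 7.46% in all. The counting interval lay wholly above 0 for 7.88% of the genes and wholly below 0 for 8.09%. The same rule called 2 higher and 14 lower of 6486 genes in endothelial barcodes, 18 and 32 of 6549 in mesenchymal barcodes, and 4 and 12 of 3884 in β cell barcodes. These classes held 894, 612 and 3434 barcodes, so that their sums rest on more cells and have less counting error than the macrophages. For 28 (0.539%) of the higher and 56 (1.08%) of the lower genes in macrophages the whole counting interval lay past 2-fold.

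Npc1 itself was sparse in macrophages, with 22 UMIs in 15 of 46 WT cells and 13 UMIs in 10 of 32 Npc1-/- cells, a relative log2 ratio of -0.71 (-1.84 to 0.33), which was 0.15 in the cells with the MHC class II genes H2-Aa, H2-Ab1 and H2-Eb1 together under 20 per 10000 UMIs. Npc1 transcripts were thus counted in the library labelled Npc1-/-, and 3′ counts that lie outside the altered stretch of a gene do not check the genotype. At this depth the interval included no difference. The ratio was -1.17 in endothelial, -0.92 in mesenchymal and -1.28 in β cell barcodes. Npc2, the soluble partner that hands cholesterol to NPC1, had 532 and 755 UMIs (928 and 1359 CPM) and a ratio of 0.54 (0.37 to 0.70). Lipa, the acid lipase that frees cholesterol from lipoprotein esters, had 83 and 107 UMIs, and its interval reached from -0.03 to 0.83. Over the 10 measured genes of lysosomal sterol export none was past 2-fold, where 7.46% of all genes were, and the list median was 0.34.

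Most measured genes of lysosomal digestion lay above the median gene in Npc1-/- macrophages, and few of them were past 2-fold. Of 61 lysosomal hydrolases and their helpers, 49 passed the limit of 20 CPM, 43 of them lay above the median gene, 6 were higher past 2-fold and 1 was lower, where 3.1% and 4.35% of all genes were, and the median ratio was 0.45. Together the list took 25892 CPM in WT and 38263 CPM in Npc1-/-. Its median was -0.05 in endothelial, 0.15 in mesenchymal and 0.10 in β cell barcodes, differences from the macrophages that 1 library per genotype does not allow to be tested. Inside the macrophages, the 7 rule genes, which chose the cells, had a median of 0.48. The 25 myeloid identity genes had a median of 0.23, with sums of 20812 CPM in WT and 29606 CPM in Npc1-/-. Whether the hydrolases differ more than macrophage transcripts at large was not tested.

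Ctsb encodes cathepsin B, a cysteine protease of the lysosome (chromosome 14, 63122462 to 63145923 on GRCm38). Per 10000 UMIs of a cell, its level had a lowest value of 0.727, a median of 11.6 and a highest value of 55.8 in WT macrophages, against 13.3, 29.1 and 121 in Npc1-/- macrophages. All 32 Npc1-/- cells thus lay above the WT median, although the ranges overlapped. Summed, 849 and 1993 UMIs (1481 and 3588 CPM) gave a ratio of 1.26 (1.15 to 1.38). In endothelial and β cell barcodes the ratio of Ctsb was -0.04 and 0.02.

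Further proteases had higher medians as well. Legumain (Lgmn), which cleaves after asparagine, had a WT median of 11.7 and a highest WT value of 25.9 per 10000 UMIs, while the Npc1-/- cells ran from 14.8 to 38.0 with a median of 20.4. Cathepsin Z (Ctsz) ran from 3.64 to 31.04 in WT with a median of 11.5, and from 10.4 to 53.3 in Npc1-/- with a median of 23.8. Their summed ratios were 0.98 for Lgmn and 0.95 for Ctsz, just under the 2-fold limit. For cathepsin D (Ctsd) the medians were 3.86 and 14.2, and a single WT cell with 157 per 10000 held 50.3% of the WT UMIs, beside a summed ratio of 0.70. That ratio was 2.09 with doublets removed and 0.23 in cells with class II under 20 per 10000 UMIs. The hydrolases higher past 2-fold beside Ctsb were Acp5 (tartrate-resistant acid phosphatase, 1.58), Dnase2a (1.32), Glb1 (β-galactosidase, 1.36), Naglu (1.35) and Dpp7 (1.95). A single WT cell held 73.3% of the 30 WT UMIs of Acp5. In cells with class II under 20 per 10000 UMIs, Acp5 (0.26) and Glb1 (0.91) were not past 2-fold. The 3 members with the most UMIs had smaller differences, with ratios of 0.33 for the protease inhibitor Cst3, 0.49 for Ctss and 0.21 for the saposin precursor Psap, and Arsb was lower at -1.47 on 35 and 12 UMIs, and at -0.36 with a stricter cell filter (more than 2000 genes and under 5% mitochondrial UMIs).

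**Figure D1:**
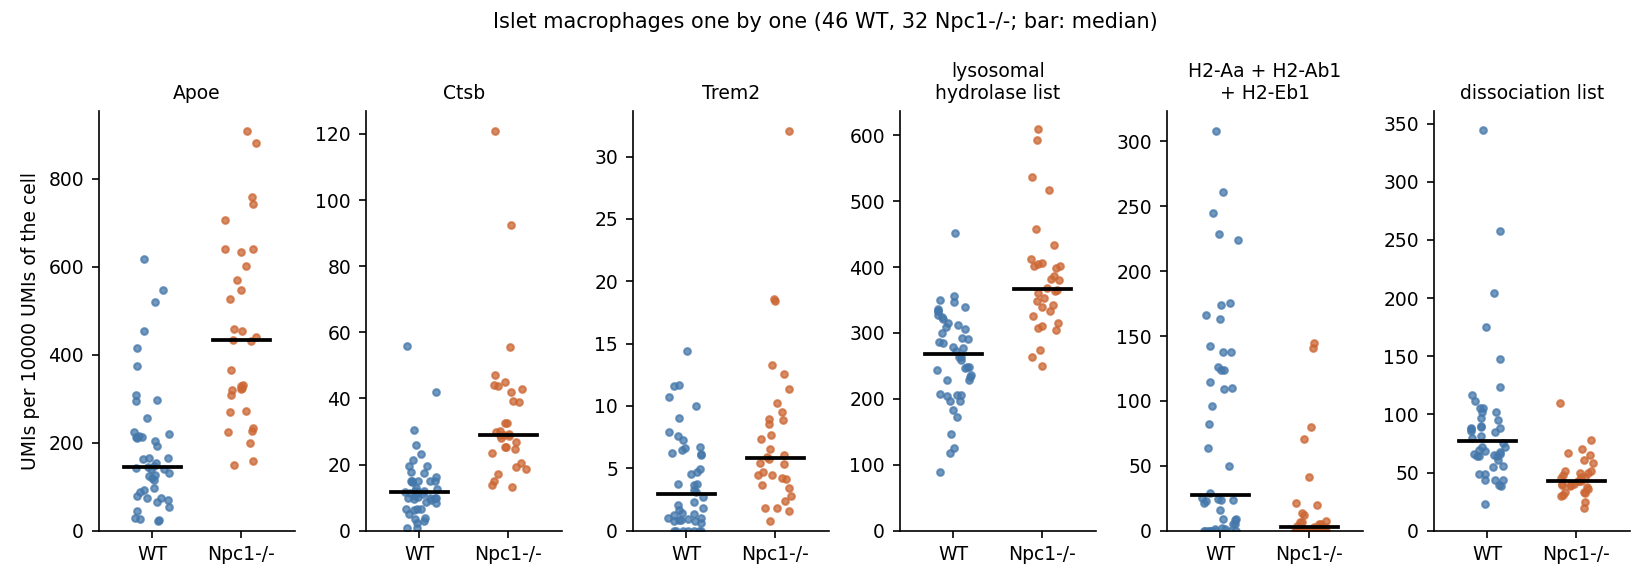
UMIs per 10000 UMIs of each cell (vertical axis) for Apoe, Ctsb, Trem2, the summed lysosomal hydrolase list, the summed class II genes and the summed dissociation list. Each point is 1 of 46 WT or 32 Npc1-/- macrophages, and the bar is the median over cells. All Npc1-/- cells lie above the WT median for Apoe and Ctsb, and most lie near 0 for the class II genes.

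Per cell, the summed hydrolases had a median of 268 per 10000 UMIs in WT (89.5 to 452) and 367 in Npc1-/- (249.5 to 610), and 30 of the 32 Npc1-/- cells were above the WT median. Of 16 measured subunits of the V-ATPase, the proton pump that acidifies the lysosome, 13 lay above the median gene, 1 was higher and 1 lower past 2-fold, where 3.1% and 4.35% of all genes were, and the median ratio was 0.46. Atp6v1c1 was higher past 2-fold (17 and 43 UMIs, 1.35) and Atp6v0a2 lower (19 and 9 UMIs, -1.01), while Atp6v0e, Atp6v1f and Atp6v1g1 had ratios of 0.64, 0.58 and 0.69. Lysosomal membrane proteins were less uniform, with a median of 0.14 over 27 genes and 17 of them above the median gene. Of these 27 genes, 1 was higher and 1 lower past 2-fold, near the 3.1% and 4.35% of all genes. The higher one was the tetraspanin Cd63 (613 and 1252 UMIs, 1.06, and 0.996 with a stricter cell filter). The lower one was the sialomucin Cd164 (37 and 17 UMIs, -1.07, and -0.48 in cells with class II under 20 per 10000 UMIs). Lamp1 had a ratio of 0.61, and Laptm5 and Laptm4a had 0.10 and 0.02. The regulators of lysosome formation and autophagy, with Tfeb at 16 and 15 UMIs, had a median of 0.13 over 17 genes. None of them was past 2-fold, where 7.46% of all genes were.

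The promoters of these genes were searched for CACGTG, the E-box core to which TFEB and TFE3 are known to bind in lysosomal genes. On either strand it was present in 14 of 48 hydrolase promoters that matched a RefSeq entry (29.2%), 9 of 33 lysosomal membrane promoters (27.3%) and 4 of 12 V-ATPase promoters (33.3%), against 8.09% of the 27025 genes of the table, each taken from 250 bases before to 50 after the start. It was also in 25% of the promoters of sterol synthesis genes (5 of 20) and in 17.4% of those of the lysosome regulators (4 of 23). The sterol synthesis median of -0.33 rested on 5 measured genes, of which 1 held CACGTG, and was 0.04 with a limit of 10 CPM. The longer form TCACGTGA was in 10.4%, 15.2% and 25% of the first 3 lists and in 1.12% of all genes. Of the 38 hydrolases measured in macrophages that had a promoter, the 10 with CACGTG had a median ratio of 0.76 and the 28 without it 0.40, which is a description without a test. Glb1 is shown as an example among the hydrolases past 2-fold, from GRCm38.p6 chr9:114400970-114401075 on the plus strand, with the match in capitals 48 bases before the RefSeq start.
Glb1: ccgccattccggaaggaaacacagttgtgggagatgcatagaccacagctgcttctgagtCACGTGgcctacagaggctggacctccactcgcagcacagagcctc
The match says that these letters are in the window, not that a factor is bound there.

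Apoe, which encodes an apolipoprotein that macrophages secrete with exported cholesterol (chromosome 7, 19696109 to 19699188), was higher in Npc1-/- macrophages. Its level per 10000 UMIs ran from 22.1 to 617 in WT with a median of 146, and from 149.9 to 909 in Npc1-/- with a median of 433. All 32 Npc1-/- cells were above the WT median and 8 were above every WT cell. The sums were 10084 UMIs (17590 CPM) in WT and 24581 UMIs (44250 CPM) in Npc1-/-, a ratio of 1.32 (1.28 to 1.35). The ratio was -0.18 in endothelial, 0.79 in mesenchymal and 0.23 in β cell barcodes.

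Apoe belongs to a list of genes known from lipid-associated macrophages, of which 25 were measured. Of these, 8 were higher past 2-fold and none lower, where the background is 3.1% of all genes, and the list median was 0.64 in macrophages, -0.07 in endothelial, 0.17 in mesenchymal and 0.02 in β cell barcodes. The list shares Ctsb, Ctsd, Ctsl and Ctsz with the hydrolases, and its members were collected with earlier results of these data known.

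Trem2, a receptor through which macrophages sense lipids, had a median of 2.92 per 10000 UMIs in WT (0 to 14.4) and 5.84 in Npc1-/- (0.785 to 32.01). Every Npc1-/- cell had a Trem2 UMI, while 7 of 46 WT cells had none. The sums of 198 and 432 UMIs gave a ratio of 1.16 (0.91 to 1.41), which was 0.99 without the mixed cells and 0.90 as a mean over cells. After thinning each cell to 2500 UMIs, a Trem2 UMI was seen in 47.8% of WT cells (32.9 to 63.1) and 81.3% of Npc1-/- cells (63.6 to 92.8), and without thinning in 84.8% and 100%. No thinned endothelial barcode had one (0 of 436 and 0 of 450, which allows a share of barcodes with a UMI of up to 0.688% and 0.667%). Before thinning, the median depth of endothelial barcodes was 7840 and 10281 UMIs, and none of them had a Trem2 UMI.

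Lgals3, which encodes galectin-3, had no UMI in 28 of 46 WT cells and in 4 of 32 Npc1-/- cells. Its 116 and 389 UMIs gave a ratio of 1.77 (1.47 to 2.09), and the thinned shares were 21.7% (10.9 to 36.4) and 53.1% (34.7 to 70.9), against 39.1% and 87.5% without thinning. Of the endothelial barcodes 1 in each library had an Lgals3 UMI. The integrin Itgax (CD11c) had 33 and 97 UMIs and a ratio of 1.57 (1.004 to 2.20), although its thinned shares of 15.2% (6.34 to 28.9) and 25% (11.5 to 43.4) had overlapping intervals, and the unthinned ones were 39.1% and 81.3%. Spp1, which encodes the matrix protein osteopontin, had 16 and 67 UMIs (2.06, 1.30 to 2.98), of which 1 Npc1-/- cell held 50.8%. Its thinned shares were 4.35% (0.531 to 14.8) and 6.25% (0.766 to 20.8), and 17.4% and 34.4% without thinning, against 0.677% and 1.11% of endothelial barcodes. The growth factor Igf1 had 26 and 88 UMIs (1.77, 1.15 to 2.48), with 46.2% of the WT UMIs in a single cell and a ratio of 4.36 with doublets removed. The share of macrophages with an Igf1 UMI was 4.35% and 15.6% after thinning, and in all other barcodes Igf1 had 8.03 and 7.87 CPM, against 45.4 and 158 CPM in macrophages. Endothelial barcodes held Igf1 themselves (17.7% and 15.6%) and give no background for it. Without thinning the shares were 13.04% and 53.1% in macrophages and 49.0% and 43.7% in endothelial barcodes. Gpnmb, often used as a marker of lipid-laden macrophages, had only 11 and 4 UMIs. Among other genes of the list, the lipase Lpl had a ratio of -0.43, Fabp5 -0.04, and the lysozyme gene Lyz2 -0.02. A single WT cell held 53.9% of the WT UMIs of Lyz2, while its per-cell medians were 4.72 and 19.9 and 27 of 32 Npc1-/- cells lay above the WT median. Its summed ratio was 2.02 with doublets removed.

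**Figure D2:**
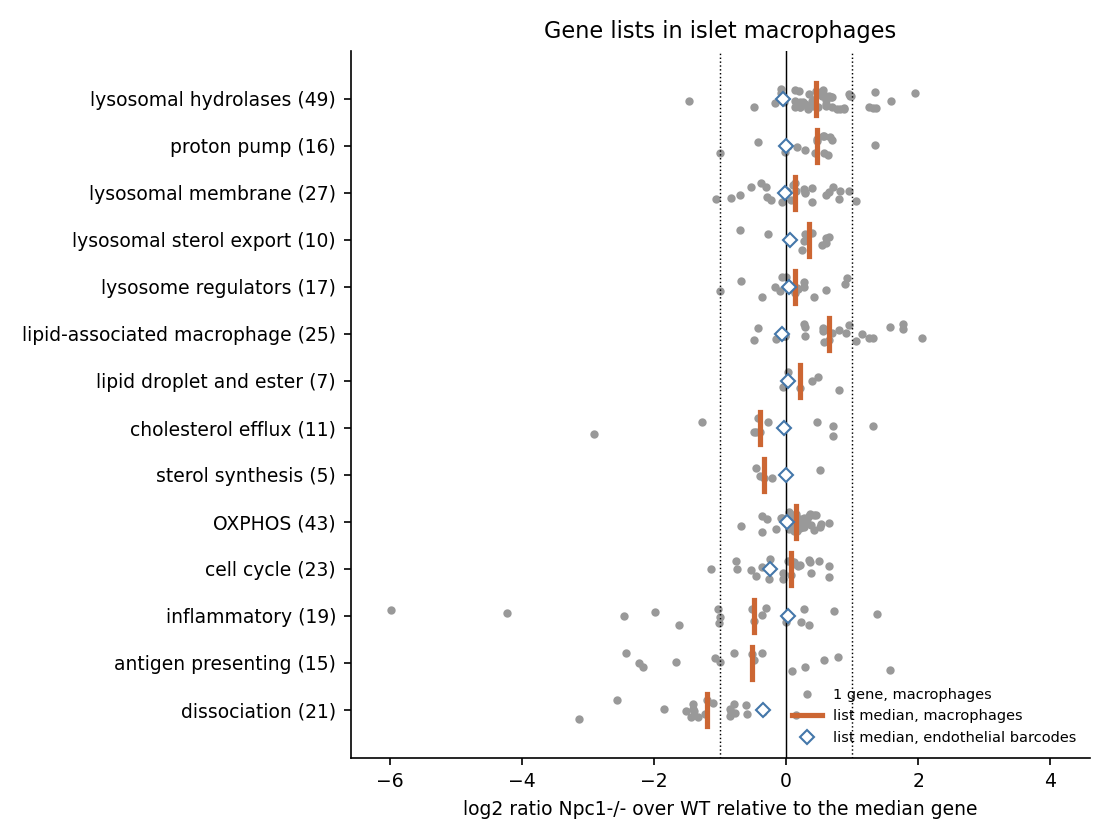
Relative log2 ratio of Npc1-/- over WT (horizontal axis) for the measured genes of 14 lists (vertical axis, number of genes in parentheses). Grey points are genes in macrophages, orange bars their list medians, and open diamonds the list medians in endothelial barcodes where at least 3 genes were measured. Hydrolases (0.45), V-ATPase (0.46) and lipid-associated genes (0.64) lie to the right, and the dissociation list (-1.20) to the left.

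The genes of cholesterol handling outside the lysosome gave no shared direction. Of 28 genes of sterol synthesis and its control, which SREBP2 raises when the endoplasmic reticulum is short of cholesterol, 5 reached 20 CPM. None of the 5 was past 2-fold, where 7.46% of all genes were. The list median was -0.33, or 0.04 with a limit of 10 CPM. Hmgcs1 had 17 and 12 UMIs and Ebp 65 and 55, so that the depth allowed no statement on single enzymes. Among 11 genes of cholesterol efflux and the LXR response, Apoe was the only one higher past 2-fold, 2 were lower, where 3.1% and 4.35% of all genes were, and the list median was -0.40. That median changed side in 4 of 14 alternatives and reached 0.30 with a stricter cell filter. The transporter Abca1 had 62 and 43 UMIs (-0.49, -1.09 to 0.09). The LXRα gene Nr1h3 was lower (34 and 4 UMIs), but a single WT cell held 64.7% of its UMIs, and without the mixed cells and the WT cells rich in Marco the ratio was 3.08. Plin2, which coats lipid droplets, had 198 and 337 UMIs (0.80, 0.54 to 1.06) with per-cell medians of 2.89 and 5.28, and Soat1, the enzyme that esterifies cholesterol for storage, had 32 UMIs in each library (0.03, -0.72 to 0.78).

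Among myeloid genes at large, 3 of 25 were higher past 2-fold and none lower, where 3.1% and 4.35% of all genes were. The list median was 0.23, or 0.02 with a stricter cell filter. Ms4a7, a membrane protein of tissue macrophages, had a median of 10.0 per 10000 UMIs in WT (0 to 36.9) and 25.3 in Npc1-/- (11.1 to 59.9), and all 32 Npc1-/- cells lay above the WT median. Its sums of 601 and 1451 UMIs gave a ratio of 1.30 (1.17 to 1.44). The other members past 2-fold were Trem2 and the receptor for dying cells Mertk (15 and 33 UMIs, 1.14), which was at -0.45 with a stricter cell filter. The rule's own genes had ratios of 0.47 for C1qa, 0.48 for C1qb, 0.61 for C1qc, 0.81 for Adgre1, 0.56 for Cd68, -0.22 for Csf1r and -0.02 for Lyz2. Outside the lists, Syngr1 (21 and 105 UMIs, 2.33), Rapsn (15 and 60 UMIs, 2.00) and Gpr137b (15 and 60 UMIs, 2.00), the last a lysosomal membrane protein, were among the 12 genes with the highest lower bound. The histone genes Hist1h2ap (29 and 247 UMIs, 3.1) and Hist1h2ae (9 and 96 UMIs, 3.38) were counted in 7 Npc1-/- cells each. Without the cycling cells Hist1h2ap had a ratio of 1.04 and Hist1h2ae 0.56, under the 2-fold limit, and near-identical copies make the split of their reads uncertain.

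**Figure D3:**
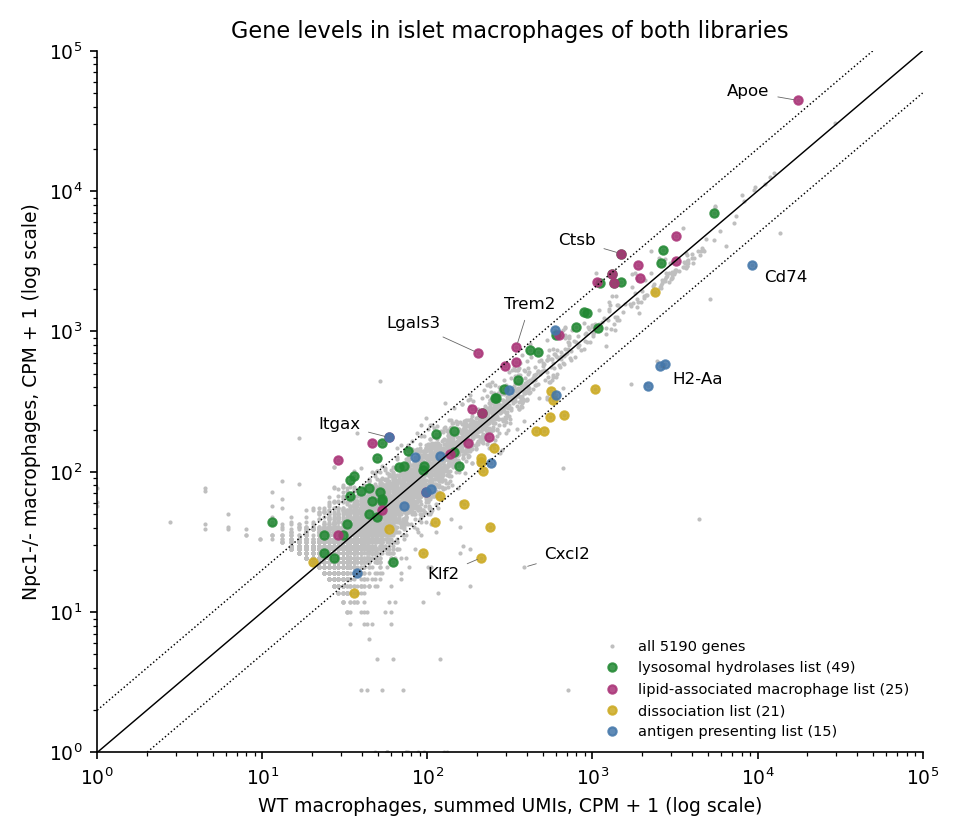
CPM plus 1 of each gene in the summed WT macrophages (horizontal axis, log scale) and Npc1-/- macrophages (vertical axis, log scale). Grey points are all 5190 genes and coloured points 4 gene lists, the solid line marks equal CPM and the dotted lines 2-fold. Apoe (17590 and 44250 CPM) and Ctsb lie above the upper dotted line, and Cd74, H2-Aa, Klf2 and Cxcl2 below the lower one.

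Genes of antigen presentation on MHC class II were lower in Npc1-/- macrophages. H2-Aa, which encodes an α chain of the class II molecule (chromosome 17, 34282744 to 34287823), had a median of 12.03 per 10000 UMIs in WT (0 to 116) and 0.304 in Npc1-/- (0 to 57.6). The invariant chain Cd74, which escorts class II molecules to the lysosome, had medians of 77.6 in WT (0 to 366) and 16.4 in Npc1-/- (0 to 182). For each gene 4 of 32 Npc1-/- cells exceeded the WT median, and the ranges overlapped fully at the low end.

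In sums, H2-Aa had 1461 and 317 UMIs (-2.17, -2.35 to -2.00), H2-Ab1 1567 and 325 (-2.24), H2-Eb1 1244 and 226 (-2.43), and Cd74 5315 and 1639 (-1.67, -1.75 to -1.59). The peptide loader H2-DMb1 was lower as well (138 and 64 UMIs, -1.07), and the class II regulator Ciita had 16 and 2 UMIs. Of the 15 measured genes of antigen presenting macrophages, 6 were lower and 1, Itgax, was higher past 2-fold, where 4.35% and 3.1% of all genes were. A thinned H2-Aa UMI was found in 67.4% of WT cells (52.0 to 80.5) and 37.5% of Npc1-/- cells (21.1 to 56.3), and in 0.459% and 0% of thinned endothelial barcodes, and the unthinned shares were 80.4% and 50%.

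The upstream sequences of H2-Aa and H2-Eb1 are shown because these neighbouring genes were lower together. Class II promoters are known to hold a conserved pair of elements, the X box and the Y box, to which the factors that recruit CIITA bind. TGATTGG, an inverted CCAAT box as in the Y box, was chosen after the values were seen. It was found on either strand in the promoters of H2-Aa, H2-Eb1 and H2-DMb1, the 3 of 9 antigen presenting genes with a RefSeq promoter that hold it, and in 8.995% of all 27025 genes. It was also in 11 of 20 sterol synthesis promoters (55%), 2 of 12 V-ATPase promoters (16.7%) and 3 of 48 hydrolase promoters (6.25%). The match is thus not particular to class II genes. TGATGATGC, chosen likewise, was in H2-Eb1 and H2-DMb1 and in 0.289% of all genes. Both sequences are from GRCm38.p6, 5′ to 3′ along the gene, H2-Aa from chr17:34287824-34287933 on the minus strand and H2-Eb1 from chr17:34305746-34305866 on the plus strand, each ending 1 base before the RefSeq start, with the matches in capitals.
H2-Aa: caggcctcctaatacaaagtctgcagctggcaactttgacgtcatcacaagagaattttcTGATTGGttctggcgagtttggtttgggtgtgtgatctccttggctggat
H2-Eb1: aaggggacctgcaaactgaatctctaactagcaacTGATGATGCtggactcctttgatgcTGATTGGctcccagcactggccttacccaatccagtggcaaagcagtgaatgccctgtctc
TGATTGG began 50 bases before the start of H2-Aa and 61 before that of H2-Eb1, where it followed TGATGATGC after 16 bases. A match is a description and does not show a bound factor.

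Class II transcripts varied widely among cells, from 0 to 308 per 10000 UMIs in WT and from 0 to 144 in Npc1-/-. Cells with H2-Aa, H2-Ab1 and H2-Eb1 together at 20 or more per 10000 UMIs, a limit set after the values were seen, numbered 29 of 46 in WT (63.0%, 47.5 to 76.8) and 7 of 32 in Npc1-/- (21.9%, 9.28 to 39.97). Within a factor of 2 of that limit lay 8 WT and 4 Npc1-/- cells, and 8 and 11 cells had no class II UMI. Because the cells were split on class II transcripts, their levels inside a range are not compared.

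Apoe, Ctsb and the medians of the hydrolase, V-ATPase, lysosomal membrane and lipid-associated lists were higher in both ranges. The lists of cholesterol handling were not. Cholesterol efflux had a median of -0.28 below the limit, and sterol synthesis 0.33 at or above it and -0.008 below it. In the 29 and 7 cells at or above the limit, the ratio was 1.40 for Apoe and 1.10 for Ctsb, and the list medians were 0.34 for hydrolases and 0.65 for lipid-associated genes. In the 17 and 25 cells below it, the same values were 1.21, 1.23, 0.51 and 0.85. Lgals3 and Itgax were at 0.96 (0.32 to 1.56) and 0.67 (-0.49 to 1.71) above the limit, not past 2-fold, and at 1.70 and 2.12 below it, a difference that was not tested. Inside WT, Apoe had 16049 CPM above the limit and 19936 CPM below it, and Ctsb 1372 and 1647 CPM. Other genes differed more between these WT cells, with Lyz2 at 999 and 6563 CPM, Ms4a7 at 1216 and 793 CPM and Lgals3 at 170.4 and 251 CPM, and 1 WT cell held 53.9% of the Lyz2 UMIs. Across cells of a library, Spearman's rho of Apoe and summed class II was -0.06 in the 46 WT and 0.08 in the 32 Npc1-/- cells, a description of cells that share a library and differ in depth.

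**Figure D4:**
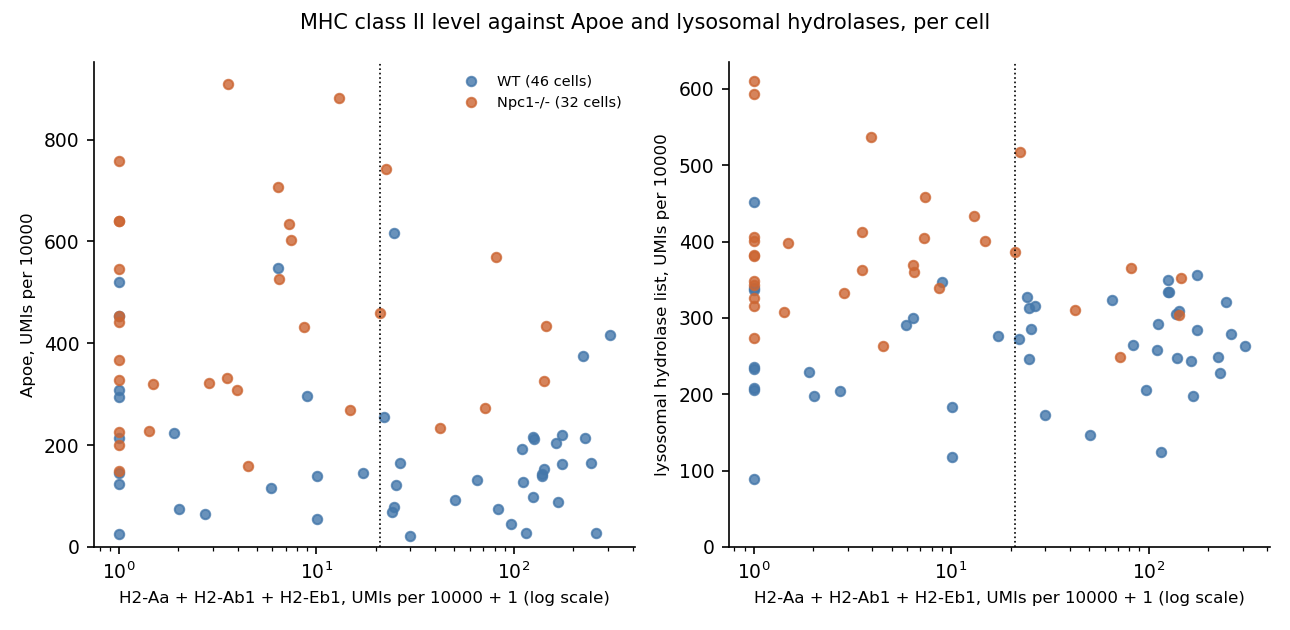
Summed class II genes per 10000 UMIs plus 1 (horizontal axis, log scale) against Apoe (left) and the summed lysosomal hydrolases (right), both per 10000 UMIs. Each point is a macrophage, 46 WT and 32 Npc1-/-, and the dotted line marks 20 per 10000. WT cells fill the range right of the line (29 cells, against 7 Npc1-/-), while Npc1-/- cells lie higher for Apoe on both sides of it.

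The WT library also held class II transcripts outside the macrophages, with Cd74 at 155 CPM and H2-Aa at 48.4 CPM in all other kept barcodes, against 1.23 and 0.288 CPM in Npc1-/-. T cell transcripts stood at 48 and 3 CPM in those barcodes. From the share of insulin, free RNA was estimated at 6.08% of the WT and 2.33% of the Npc1-/- macrophage UMIs. Subtracting that profile left H2-Aa at -2.21 and Cd74 at -1.71, and the part of the class II-rich barcodes in the difference was not tested.

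Immediate early and heat shock genes, which cell dissociation is known to induce, were lower in Npc1-/- macrophages. Of 21 measured genes, 12 were lower past 2-fold and none higher, where 4.35% and 3.1% of all genes were, and the list median was -1.20. Per cell the list summed to a median of 77.5 per 10000 UMIs in WT (22.6 to 344) and 42.9 in Npc1-/- (19.4 to 110), and 2 of 32 Npc1-/- cells exceeded the WT median. The transcription factors Klf2 (121 and 13 UMIs, -3.14), Fosb (136 and 22 UMIs, -2.57), Jun (595 and 214 UMIs, -1.44) and Fos (386 and 141 UMIs, -1.42), the chaperone Hspa1a (290 and 108 UMIs, -1.39) and the phosphatase subunit Ppp1r15a (57 and 11 UMIs, -2.29) were among the 12 genes with the lowest upper bound. With the stricter cell filter Fos (-0.90), Hspa1a (-0.73) and Ppp1r15a (-0.47) were not past 2-fold. The list was lower in Npc1-/- in other cells of the same libraries too, with medians of -1.63 in β cell, -0.49 in mesenchymal and -0.35 in endothelial barcodes. Its part in the other differences between the macrophages was not tested.

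Of 19 inflammatory genes, 8 were lower and 1 was higher past 2-fold, where 4.35% and 3.1% of all genes were. The list median was -0.48, or -0.08 with doublets removed. Cxcl2, a chemokine that attracts neutrophils (chromosome 5, 90903871 to 90905938), was seen in 17 of 46 WT cells with 219 UMIs and in 5 of 32 Npc1-/- cells with 11 UMIs, a ratio of -4.22 (-5.31 to -3.42). Nfkbia, an inhibitor of NF-κB (158 and 75 UMIs, -1.04), the nuclear NF-κB cofactor Nfkbiz (34 and 8 UMIs, -1.99) and the chemokine Ccl12 (117 and 56 UMIs, -1.02) were lower past 2-fold, as were Ccl5, Il18 and Retnla, Tnf had 21 and 10 UMIs (-1.003, -2.29 to 0.11), and Tgfb1 differed by -0.01 (-0.31 to 0.29). The ratio of Il18 was above 0 in 4 of 12 alternatives. With a stricter cell filter its value was 0.49, which equal counts in both libraries give and which shows no direction. Nfkbia was at -0.22 with that filter, Ccl5 was at -0.94 without the mixed cells, and Ccl12 was at -0.40 without cycling cells. All 32 UMIs of Retnla lay in 1 WT cell. The single higher gene was Ccl2 (17 and 44 UMIs, 1.38), of which 1 Npc1-/- cell held 90.9%. Interferon-stimulated genes had a median of 0.10 over 14 genes with 2 higher and 1 lower, where 3.1% and 4.35% of all genes were, and the median was -0.97 with a stricter cell filter.

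Some WT totals rested on few cells. A single WT cell held 65.0% of the 409 Marco UMIs, and 1 Marco UMI was counted in Npc1-/-. Marco is a scavenger receptor of macrophages in other tissues. A WT cell held 86.9% of the 381 Hmox1 UMIs, the haem oxygenase that breaks down haem, so that the summed ratio of -2.65 went with a per-cell median of 0 in WT and 0.585 in Npc1-/-. Timd4 and Retnla were each counted with 32 UMIs in 1 WT cell and with 0 in Npc1-/-, which allows up to 3 counts. None of these genes describes the WT macrophages as a group.

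A difference in cell division was not detectable. At least 12 of 24 cell cycle genes had a UMI in 12 of 46 WT cells (26.1%, 14.3 to 41.1) and 7 of 32 Npc1-/- cells (21.9%, 9.28 to 39.97), and these cells were deeper than the rest, with medians of 19728.5 and 23381 UMIs. The list median of the 23 measured cell cycle genes was 0.07, kept its side in 6 of 14 alternatives and was -0.75 with a stricter cell filter. Nuclear genes of oxidative phosphorylation were measured for 43 of 44 members, none of which was past 2-fold, where 7.46% of all genes were. The list median was 0.15, against 0.02 in endothelial and -0.07 in β cell barcodes.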

How the data were processed

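For each library the authors deposited 1 filtered Cell Ranger matrix of raw counts, in which a UMI is counted once per barcode and gene. Per the labels the tools were Cell Ranger 3.1.0 and Seurat 4.0.3 with mm10. For the 10x reagents, labels and methods differ in the version. The study's later filters had not been applied to these counts.

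Filters, cell rule and gene lists were those given in the text, and members and lists were chosen with earlier results of these data known. UMIs were summed over the macrophages of a library with pandas 2.3.3 and numpy 2.4.6 in Python 3.11.15, and intervals came from scipy 1.17.1. Doublets were not removed, except in an alternative with Scrublet (scanpy 1.11.5). That alternative took out 6 of the 46 WT and 1 of the 32 Npc1-/- macrophages. The TMM factor came from edgeR 4.0.16 in R 4.3.3. Endothelial and mesenchymal barcodes had at least 4 markers of their class, and β cell barcodes had at least 30% insulin. Thinning used 1 random draw per cell to 2500 UMIs. Named genes were the rule's genes, Npc1, Npc2, Lipa and Soat1; per list the 4 members with the highest mean CPM and those past 2-fold on at least 30 UMIs; and the 12 genes at each end by the interval bound nearest 0, among genes past 2-fold with a mean of at least 50 CPM, seen in at least 10% of the cells of the higher library, above the other barcodes and with the same direction for the mean over cells. Not all are printed, and further members (Ciita, Gpnmb, Hmgcs1, Retnla and others) were named after their values were seen. The calculation of ratios and intervals was tried on Poisson counts simulated from the summed UMIs. These counts hold no variation between cells, so they say nothing on sums that rest on few cells. Promoters and positions were from RefSeq (GRCm38.p6) and GENCODE vM21. Alternatives were doublet removal, a 5% hormone limit, 10 C1q UMIs, stricter cell filters, other CPM limits, a 1.5-fold limit, 2 counts added, free RNA subtracted, means over cells, other totals and other thinning. Leaving out mixed, Marco-rich, cycling, shallow or class II-rich cells was added after seeing the data.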

Additional observations from a re-analysis of the deposited data

Results flagged for a closer look

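Among the barcodes rejected by the filters, 4 of 3377 in Npc1-/- and 3 of 3941 in WT carried the macrophage pattern. All 4 in Npc1-/- had 1000 genes or fewer. The rejected barcodes entered none of the comparisons. Ccl2 had opposite ratios in macrophages (1.38, with 90.9% of the Npc1-/- UMIs in 1 cell) and in mesenchymal barcodes (-2.91), and the cyclin Ccnb2 had -1.13 in macrophages and 0.69 in mesenchymal barcodes. Neither difference between the cell classes was tested.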

How the results depend on the processing

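No paired analysis was possible because each genotype had 1 library. Under 14 alternatives the median of the lysosomal hydrolases ran from 0.33 to 0.51, of lipid-associated genes from 0.59 to 1.05 (1.05 with doublets removed) and of the dissociation list from -1.48 to -0.66. The median of antigen presenting genes ran from -0.75 to -0.47, apart from the setting with class II under 20, which selects cells on members of the list. Under 12 alternatives Apoe ran from 1.07 to 1.33, Ctsb from 1.19 to 1.55 and Trem2 from 0.90 to 1.24. H2-Aa ran from -3.26 to -1.98, apart from that same setting. Lyz2 ran from -1.17 to 2.02. The 161 higher and 226 lower genes became 539 and 532 with the strict cell filter (18 WT and 9 Npc1-/- macrophages), 341 and 499 at 10 CPM, 41 and 62 at 50 CPM, 633 and 650 at 1.5-fold, and 339 and 448 in cells with class II under 20 per 10000. Without cycling cells 250 were higher. The share of cells with a Trem2 UMI was 64.3% in WT at 4000 UMIs, and 84.8% in WT and 100% in Npc1-/- without thinning. The interferon median was -0.97 with the strict filter, and the iron and oxidant median 0.54 in cells with class II under 20.

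The sign of some single genes turned, and where nothing else is said the cause was not tested. With the strict filter Ccl2 was -4.16, Cfp 0.69, Ifit3 -2.48, Mertk -0.45 and Nr1h3 2.07. Timd4, at 0 in Npc1-/- and in 1 WT cell, had the value 0.49 there, which is the offset of 0 against 0 counts and no direction. Il18 had the same value of 0.49 with that filter, which equal counts in both libraries give, and it is not read as a direction. With doublets removed Cfp was 0.74, Il18 0.13 and Nr1h3 1.35. Without mixed and Marco-rich cells Cfp was 1.01, Il18 0.026 and Nr1h3 3.08, the last on 4 Npc1-/- UMIs. Marco, whose cells that setting removes, had 1.4997 with 1 Npc1-/- UMI, which gives no direction. Without cycling cells Il18 was 0.12 and Nr1h3 1.40. In cells with class II under 20, Gclm was 0.61 and Hmox1 1.63. Cd74 (0.10) and H2-DMb1 (0.018) are not read there, since the cells were selected on class II transcripts.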
